A study of Homo sapiens with 6 samples.

Results

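A set of 8 cell surface receptor genes, grouped as orphan-like G protein-coupled receptors (GPCRs) of epithelia, were followed in the human colorectal carcinoma line HCT116. They were ADGRF1, ADGRF4, ADGRG1, ADGRG6, ADGRE5, GPR15, GPRC5A and F2RL1, and each was represented by the array probe set that carried its symbol alone. Of these 8 genes, 7 were measured, among 18404 genes in all, and each of the 7 had 1 probe set. F2RL1 was not analysed here. The genes were chosen with their values in view, ADGRF1 and GPR15 for a large difference between the sorted fractions, so the values of the 7 genes are given as a description with no test between fractions.

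HCT116 cells were sorted for CD133, the surface glycoprotein encoded by PROM1, and total RNA of the CD133+ and the CD133- fraction was hybridised to Affymetrix arrays in 3 repetitions each, 6 arrays in all. Both groups are fractions of 1 cell line, and the labels give no treatment and no property that separates them other than the sort. Nothing in the labels ties a repetition to a culture or sort of its own, and p-values therefore cover the spread between these arrays, whose source may be technical. Signals are log2 values, and every difference is CD133+ minus CD133-, so a difference of 1 on this scale is a doubling of signal. Probe sets differ in brightness, so no gene's level is ranked against another's; the median of all probe set means, 5.53, serves only as a rough mark of dim signal.

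GPCRs cross the membrane in a bundle of helices and pass an outside signal to heterotrimeric G proteins inside the cell. Adhesion GPCRs carry a long extracellular region that most of them cut from the membrane-spanning part at a proteolysis site close to the membrane, and the stalk left behind acts as a tethered agonist. Protease-activated receptors are likewise switched on by a tethered ligand, which a protease exposes. GPR15 is best known as a homing receptor that guides T cells to the large intestine, and GPRC5A is a retinoic acid-induced receptor of epithelia.

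The promoters of the 2 receptor genes that stood apart are shown with that of ADGRF4, which lies near ADGRF1 on the same chromosome and belongs to the same adhesion GPCR subfamily. Each line gives the 250 bases before the annotated transcription start, 5' to 3' in the direction of the gene, from RefSeq on GRCh38.p14. Capitals mark matches to the motifs named after them.
ADGRF1 (chr6:47042333-47042582, minus strand): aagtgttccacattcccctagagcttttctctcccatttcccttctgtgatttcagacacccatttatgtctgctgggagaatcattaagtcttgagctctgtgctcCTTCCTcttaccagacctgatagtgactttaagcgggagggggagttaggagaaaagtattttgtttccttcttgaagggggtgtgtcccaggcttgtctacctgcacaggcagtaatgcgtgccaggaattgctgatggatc
ADGRF4 (chr6:47698330-47698579, plus strand): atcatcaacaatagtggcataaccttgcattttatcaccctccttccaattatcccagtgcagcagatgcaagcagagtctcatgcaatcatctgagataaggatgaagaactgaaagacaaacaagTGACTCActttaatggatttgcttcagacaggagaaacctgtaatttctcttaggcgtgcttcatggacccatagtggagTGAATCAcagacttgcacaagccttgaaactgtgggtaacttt
GPR15 (chr3:98531728-98531977, plus strand): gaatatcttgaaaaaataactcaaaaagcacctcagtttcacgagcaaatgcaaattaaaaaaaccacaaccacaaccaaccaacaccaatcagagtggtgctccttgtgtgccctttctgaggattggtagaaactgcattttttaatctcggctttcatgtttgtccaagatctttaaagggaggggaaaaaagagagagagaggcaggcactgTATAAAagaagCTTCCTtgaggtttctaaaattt

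The windows were searched on both strands for GGAAGT, the core of ETS factor sites, TGANTCA, the AP-1 site, and CACCTG, the E-box bound by ZEB and SNAI repressors. TATAAA, the TATA box, and AGGAAG, another ETS-type core, were added after the sequences had been seen. A stretch can match more than 1 motif where their letters overlap. The ADGRF1 window held 1 match, to AGGAAG on the reverse strand, 143 to 138 bases before the start. The GPR15 window held TATAAA 34 to 29 bases before the start and AGGAAG on the reverse strand 23 to 18 bases before it. The ADGRF4 window held TGANTCA at 123 to 117 and at 43 to 37 bases before the start and none of the other motifs. Of 35116 promoter windows of this length, 28.7% held AGGAAG, 10.7% TATAAA, 6.57% TGANTCA, 19.5% GGAAGT and 17.5% CACCTG. These matches describe letters in a window and say nothing about binding. The GPR15 and ADGRF4 windows were 38.8% and 42% G or C and that of ADGRF1 47.6%, against a median of 58% over 27305 genes. RefSeq windows were found for 6 of the 8 genes, all but ADGRE5 and GPRC5A.

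ADGRF1, an adhesion GPCR formerly named GPR110 whose reported lipid ligand is synaptamide, was higher in every CD133+ array. Its signal was 7.92, 8.60 and 8.54 in CD133+ repetitions 1, 2 and 3, and 6.60, 7.12 and 6.40 in the CD133- arrays of the same numbers. The groups did not overlap, and the lowest CD133+ array lay 0.81 above the highest CD133- array. The means were 8.36 ± 0.38 and 6.71 ± 0.37 (SD, n = 3 each), a log2 difference of 1.65, or 3.14-fold. Within repetitions 1, 2 and 3 the difference was 1.32, 1.49 and 2.14. By size of difference ADGRF1 ranked 8 of 18404 genes. In bulk RNA of a fraction, more cells with the transcript and more transcript per cell cannot be told apart.

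GPR15 was the other receptor gene that was higher in every CD133+ array. It measured 5.24, 5.20 and 5.18 in CD133+ and 4.28, 4.14 and 3.92 in CD133- repetitions 1, 2 and 3. The CD133+ arrays were almost level, with an SD of 0.035, whereas the CD133- arrays spread over an SD of 0.18, and 0.89 separated the groups. The means were 5.21 and 4.11 (n = 3 each), a difference of 1.09, or 2.13-fold, and GPR15 ranked 30 of 18404 genes by size of difference. Both means lay below 5.53, the median of all probe set means, so the signal was dim in both fractions.

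Thus 2 of the 7 measured genes had groups that did not overlap, both higher in CD133+ cells. The same held for 3.43% of all genes, and nothing is read from that comparison, since the genes were chosen on this contrast. In both genes the difference was smallest in repetition 1 and largest in repetition 3. PROM1, on whose product the cells were sorted, had differences of 2.29, 2.90 and 3.12 in repetitions 1, 2 and 3, the same sequence of sizes. The repetitions have no order of their own, and 3 of them are too few for a correlation.

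**Figure D1:**
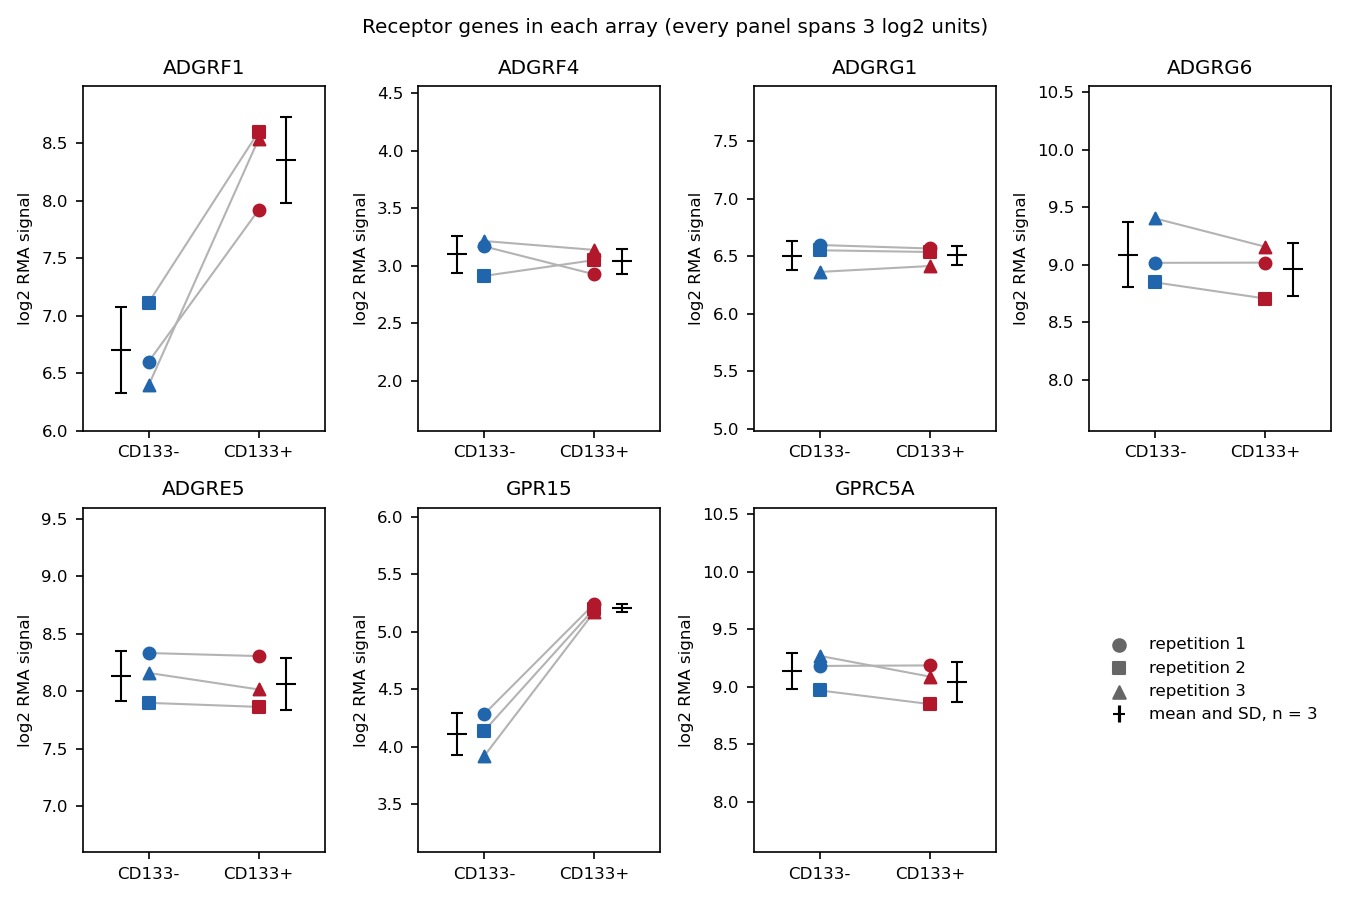
Log2 RMA signal of the 7 measured receptor genes in each array, CD133- in blue and CD133+ in red, with a grey line joining arrays of the same repetition and bars for mean and SD (n = 3). ADGRF1 and GPR15 are higher in all 3 CD133+ arrays, whereas the fractions overlap in the other 5 genes, with mean differences between -0.13 and 0.0021.

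The other 3 adhesion GPCR genes that were above the median signal had nearly the same level in both fractions. ADGRG1, formerly GPR56, a receptor for collagen III and transglutaminase 2, measured 6.57, 6.54 and 6.41 in CD133+ and 6.60, 6.55 and 6.36 in CD133- repetitions 1, 2 and 3. The difference was 0.0021, and that of the single repetitions lay between -0.03 and 0.05. The groups overlapped fully, and the repetition 3 arrays were the lowest of both fractions.

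ADGRG6, formerly GPR126, a receptor for collagen IV and laminin-211 that Schwann cells need to form myelin, measured 9.02, 8.71 and 9.16 in CD133+ and 9.02, 8.85 and 9.40 in CD133- arrays. The groups overlapped over most of their range. The difference was -0.13, with 0.0017, -0.14 and -0.25 in repetitions 1, 2 and 3.

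ADGRE5, which encodes CD97, a receptor of leukocytes and many epithelia that binds CD55, measured 8.31, 7.86 and 8.02 in CD133+ and 8.33, 7.90 and 8.16 in CD133- arrays. It was lower in CD133+ cells in each repetition, by a mean difference of -0.07, with -0.03, -0.04 and -0.14 in repetitions 1, 2 and 3. The groups overlapped almost fully.

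ADGRF4, formerly GPR115, an adhesion GPCR of stratified epithelia, stayed dim. It measured 2.93, 3.05 and 3.14 in CD133+ and 3.17, 2.91 and 3.22 in CD133- arrays, a difference of -0.06 whose sign differed between repetitions. All 6 values lay far below the median of 5.53 over all probe sets.

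GPRC5A measured 9.19, 8.85 and 9.09 in CD133+ and 9.18, 8.97 and 9.27 in CD133- arrays. The difference was -0.10, with 0.0044, -0.12 and -0.18 in repetitions 1, 2 and 3, and the groups overlapped. Its means were 9.04 ± 0.17 and 9.14 ± 0.15 (SD, n = 3 each).

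Repetition number accounted for most of the variation of 4 genes, as it did over all probe sets (64.9%, against 17.0% for the fraction). Its share of the sum of squares over the 6 arrays was 95.7% in ADGRG1, 94.4% in ADGRE5, 86.3% in ADGRG6 and 80.9% in GPRC5A. In ADGRF1 and GPR15, chosen for their difference between fractions, it was 7.93% and 2.54%, and the fraction held 88.0% and 96.2%. ADGRF4, the dim gene, split into 48.7% for repetition and 44.5% for the residual. The fit across all probe sets tests differences between repetitions independently of the contrast that chose the genes. By limma's F test 0 of the 7 genes passed an adjusted p of 0.05, which 15.3% of all genes passed. At an unadjusted p under 0.05 there were 2 of the 7. The share of all genes at that unadjusted threshold was not taken, so nothing is read from this count. The adjusted p was 0.0569 for ADGRG6, 0.0645 for ADGRE5 and 0.153 for ADGRF1, and 0.471, the largest, for ADGRF4. After quantile normalization was repeated, 2 of the 7 passed, and 2655 of 28230 probe sets.

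ADGRF1 lies in a cluster of related adhesion GPCR genes, and of those measured there it alone differed by more than 0.1 in size. ADGRF5, its neighbour on one side, had a difference of 0.03, and the pseudogene ADGRF2P and ADGRF4, on its other side, had -0.08 and -0.06. Between them lie TNFRSF21, a death receptor gene, at 0.16 and CD2AP, an adaptor of the actin cytoskeleton, at 0.12. Of the 3 measured genes on each side of ADGRF1, 0 of 6 passed limma with or without the repetition number as a block; 0 had an unadjusted p under 0.05 without the block and 1 with it, as did 3.47% and 11.6% of all genes. The largest difference among them was that of PLA2G7, a secreted phospholipase gene, at 0.39 (block adjusted p = 0.155).

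GPR15 differed in this respect, since the genes on both sides of it were higher too. CPOX, which encodes coproporphyrinogen oxidase of haem synthesis, measured 9.65, 9.64 and 9.27 in CD133+ and 8.80, 8.68 and 8.41 in CD133- repetitions 1, 2 and 3. Every CD133+ array lay above every CD133- array. The difference was 0.89 (SE 0.16), or 1.85-fold, with 0.86, 0.96 and 0.85 within repetitions.

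CLDND1, a claudin-domain membrane protein gene on the other side of GPR15, measured 11.11, 10.70 and 10.63 in CD133+ and 10.32, 9.92 and 9.98 in CD133- arrays. Again the groups did not overlap. The difference was 0.74 (SE 0.17), or 1.67-fold, with 0.79, 0.78 and 0.66 within repetitions. CPOX and CLDND1 rose by limma with the repetition block (adjusted p = 0.0230 and 0.0352), where 0.369% of all genes passed, and did not pass with fraction as the only term (0.341 and 0.736), where EHF alone passed, 0.00543% of genes.

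Those 2 calls rested on all 3 pairs of arrays. Without 1 repetition, the block adjusted p was 0.0570 to 0.141 for CPOX and 0.111 to 0.166 for CLDND1, while the differences stayed at 0.86 to 0.91 and 0.72 to 0.78.

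The higher signal did not extend far along the chromosome. Beyond CPOX, ST3GAL6, a sialyltransferase gene, had a difference of 0.33 (block adjusted p = 0.328), with 0.49, 0.42 and 0.08 in repetitions 1, 2 and 3, and DCBLD2, the next gene, had -0.12. Beyond CLDND1, the olfactory receptor genes OR5K2 and OR5K1, both dim, had 0.03 and 0.07. In a wider window of 15 measured genes on each side, chosen after these values had been seen, the 24 further genes ranged from -0.32 to 0.32 and 0 passed with the block. Around ADGRF1 the 24 further genes ranged from -0.43 to 0.51, and 0 passed with the block. Over the neighbours of all 7 genes, 2 of 39 passed with the block, CPOX and CLDND1, and 5 had an unadjusted block p under 0.05, a share close to the 11.6% of all genes.

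**Figure D2:**
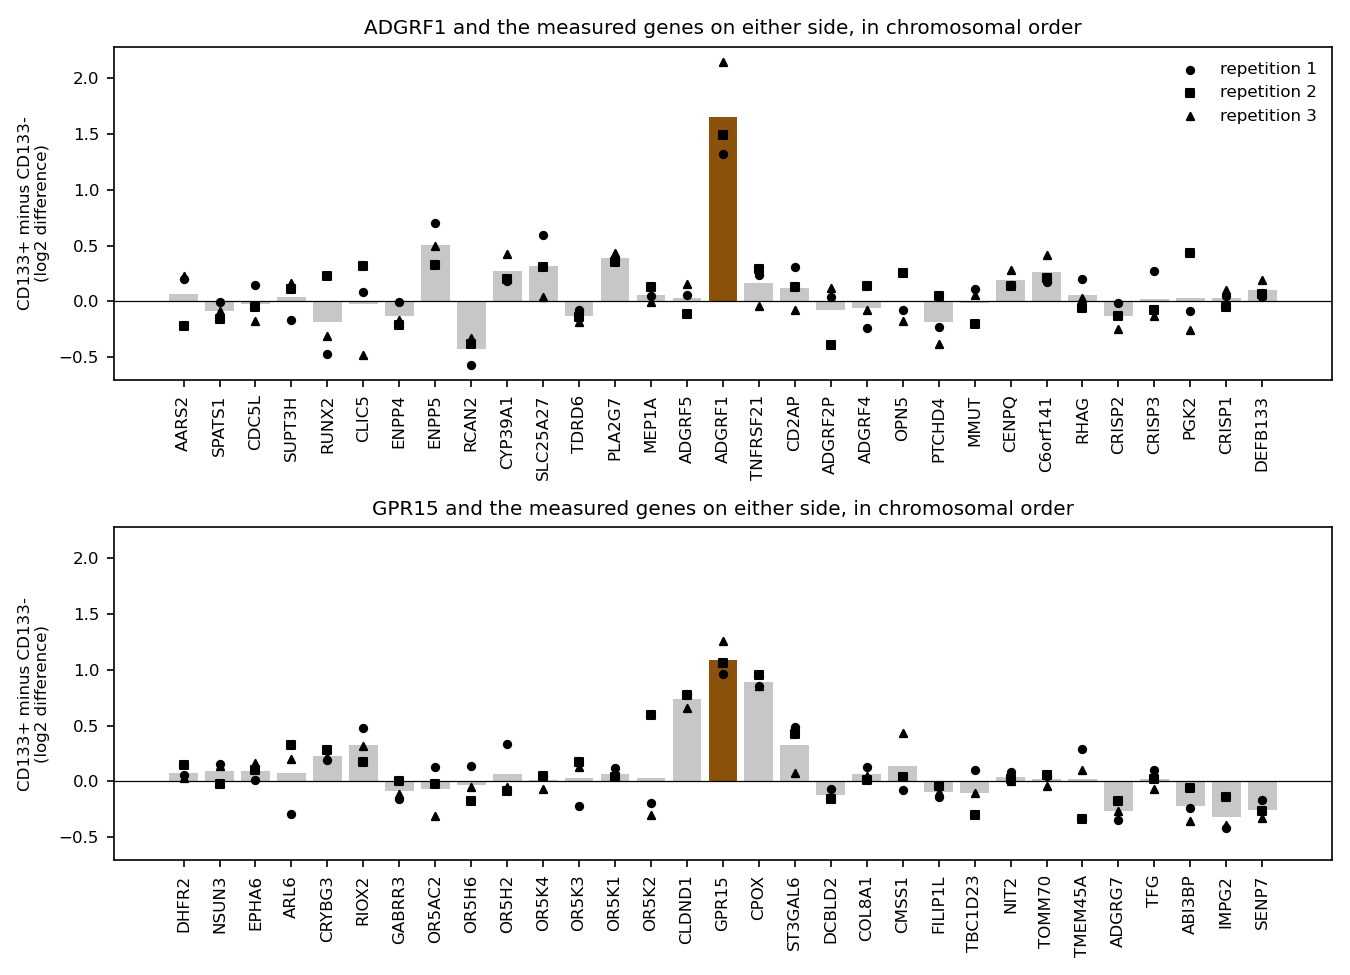
Difference between CD133+ and CD133- cells for ADGRF1 (top) and GPR15 (bottom), in brown, and the 15 measured genes on either side in chromosomal order, in grey; bars are mean log2 differences and points are the 3 repetitions. ADGRF1 is at 1.65, with its neighbours between -0.43 (RCAN2) and 0.51 (ENPP5). GPR15 at 1.09 is flanked by CLDND1 at 0.74 and CPOX at 0.89.

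The profile of ADGRF1 over the 6 arrays was compared with that of 11249 genes above the median signal. Each gene was centred on its own mean, and likeness was the root mean square difference between the 6 log2 values. The 6 most alike genes were SEMA3A, a secreted guidance cue, at a distance of 0.26, NFIB, a transcription factor gene, at 0.36, EHF, an ETS transcription factor gene, at 0.37, CASP4, an inflammatory caspase gene, at 0.39, MACC1, a regulator of MET transcription, at 0.40, and NRIP1, a nuclear receptor corepressor gene, at 0.43. The distances are descriptions over 6 arrays. ADGRF1 had its highest CD133- value in repetition 2 and its lowest in repetition 3, and so did 4 of the 6 genes, namely SEMA3A, NFIB, EHF and NRIP1. The 6 genes were picked on these same values, which favours a shared order, so nothing is read from it.

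**Figure D3:**
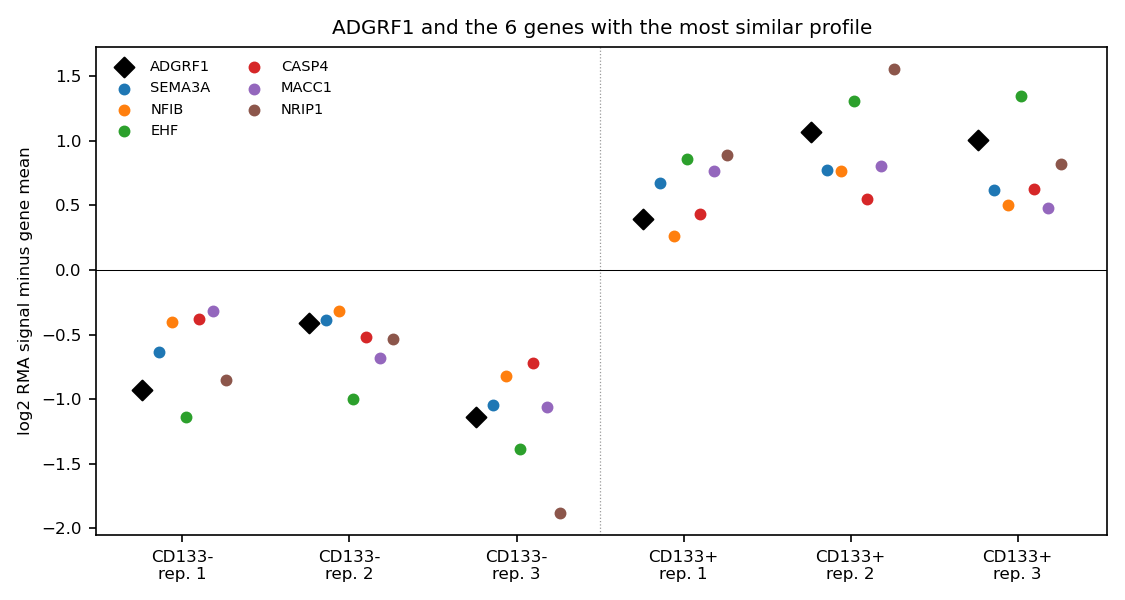
Log2 RMA signal of ADGRF1 (black diamonds) and the 6 genes most alike, each minus its own mean, in the 6 arrays; colours are genes. All 7 genes lie below 0 in the 3 CD133- arrays and above 0 in the 3 CD133+ arrays, which the choice by likeness favours. SEMA3A lies closest to ADGRF1, at a root mean square distance of 0.26.

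The rest of the adhesion GPCR family was read as a list of its own, since ADGRF1 had been chosen for its large difference. Of 27 other family genes 24 were measured, 10 with a difference above 0 and 14 below, with a median of -0.05 against -0.0064 over all genes. In the limma fit with fraction as the only term 0 passed (1 at an unadjusted p under 0.05), and with the repetition block 0 (4 unadjusted). Over all genes the unadjusted shares were 3.47% and 11.6%, against which this and the following lists' counts are to be read. ADGRE2, a close paralogue of ADGRE5 found on myeloid cells, had the largest difference. It measured 6.20, 6.20 and 5.56 in CD133+ and 5.41, 5.31 and 5.55 in CD133- arrays, so that the fractions were apart in repetitions 1 and 2 and level in repetition 3. Its difference was 0.56 (SE 0.19 with fraction as the only term), and the limma fit with the block gave an adjusted p of 0.317. The value is uncertain because ADGRE2 and ADGRE5 share near-identical sequence. CELSR1, a planar polarity receptor, had -0.20, with its CD133+ arrays below all CD133- arrays.

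Ligands and membrane partners of the receptors were close to level. All 16 were measured, 11 above 0 and 5 below, with a median of 0.04. None passed in either limma fit (0 of 16), and 2 had an unadjusted p under 0.05 in each. NAPEPLD, whose product releases N-acylethanolamines, the lipid class of synaptamide, had a difference of 0.47, and FAAH, which degrades them, 0.11. TGM2, a ligand of ADGRG1, had -0.52 (block adjusted p = 0.270), and these 3 were named after their values were seen. ITGB1, a subunit of an integrin that CD97 binds, had 0.14 and groups that did not overlap. GPR15LG, the peptide ligand of GPR15, had 0.01 and CD55, the partner of CD97, 0.08.

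Proteases that act on protease-activated receptors, and their inhibitors, held the largest differences of the pathway lists. Of 32 genes 29 were measured, 17 above 0 and 12 below, with a median of 0.02. The groups did not overlap in 6, of which 5 were higher and 1 lower, against 3.43% and 4.52% of all genes. The limma fits called 0 of them with fraction as the only term (5 at an unadjusted p under 0.05) and 0 with the block (7 unadjusted). TFPI, an inhibitor of the tissue factor pathway, had a difference of 0.75 (block adjusted p = 0.0874).

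KLK6, a secreted kallikrein, measured 6.52, 6.97 and 6.58 in CD133+ and 6.03, 6.19 and 5.86 in CD133- arrays. Every CD133+ array was the higher, with a difference of 0.67 (block adjusted p = 0.0663). ST14, which encodes the membrane protease matriptase, an activator of the receptor PAR2, measured 8.89, 9.03 and 8.90 in CD133+ and 8.43, 8.32 and 8.43 in CD133- arrays. Its groups were apart by more than their spread, with a difference of 0.55 (block adjusted p = 0.0921). PRSS3, a trypsinogen gene, had 0.42 (block adjusted p = 0.154), a value that is uncertain because trypsinogen genes share near-identical sequence. F2RL1, the gene of PAR2, was not analysed. The other receptor genes were lower or level, F2R at -0.25, F2RL3 at -0.18 and F2RL2 at -0.01, and their groups overlapped. F2R had 0.04, -0.31 and -0.49 in repetitions 1, 2 and 3.

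Other orphan receptors of epithelia were level as a list, with 8 of 24 measured genes above 0, 16 below and a median of -0.03. Limma called 0 without the block (0 unadjusted) and 0 with it (4 unadjusted). The paralogues of GPRC5A had small differences like its own -0.10, namely GPRC5B at -0.17, with groups that did not overlap, GPRC5C at -0.10 and GPRC5D at -0.02.

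Genes of G protein signalling inside the cell did not pass either. Of 28 measured G protein subunit genes 8 were above 0 and 20 below, with a median of -0.05, and by limma 0 passed without the block (2 unadjusted) or with it (4 unadjusted). The groups did not overlap in 8 of them, 4 in each direction, against 3.43% of all genes that were higher and 4.52% that were lower. GNAI1, an inhibitory alpha subunit, measured 9.26, 9.11 and 8.85 in CD133+ and 8.80, 8.69 and 8.40 in CD133- arrays. It was higher within each repetition by nearly the same amount, 0.46, 0.42 and 0.45 (block adjusted p = 0.113). GNG5, a gamma subunit, had 0.24, whereas GNAQ, the alpha subunit that drives phospholipase C, had -0.36 and GNAI2, another inhibitory alpha subunit, -0.20. For GNG5, GNAQ and GNAI2 the brighter of 2 probe sets is given.

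Among 39 measured receptor kinases, arrestins, RGS proteins and effectors, 23 were above 0 and 16 below, with a median of 0.02. By limma 0 passed without the block (4 unadjusted) or with it (6 unadjusted). PDE4B, a phosphodiesterase that degrades cyclic AMP, measured 6.66, 6.62 and 6.21 in CD133+ and 6.06, 6.11 and 5.60 in CD133- arrays. It was higher in each repetition, by 0.61, 0.51 and 0.62 (block adjusted p = 0.0663). The catalytic subunits of protein kinase A, PRKACB and PRKACA, had differences of 0.42 and 0.24, the second gene being also a chromosomal neighbour of ADGRE5. ADCY9, an adenylyl cyclase gene, had -0.23. All 4 genes were named from those whose groups did not overlap, so their separation follows from the choice. In the list the groups did not overlap in 3 higher and 4 lower genes, against 3.43% and 4.52% of all genes.

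**Figure D4:**
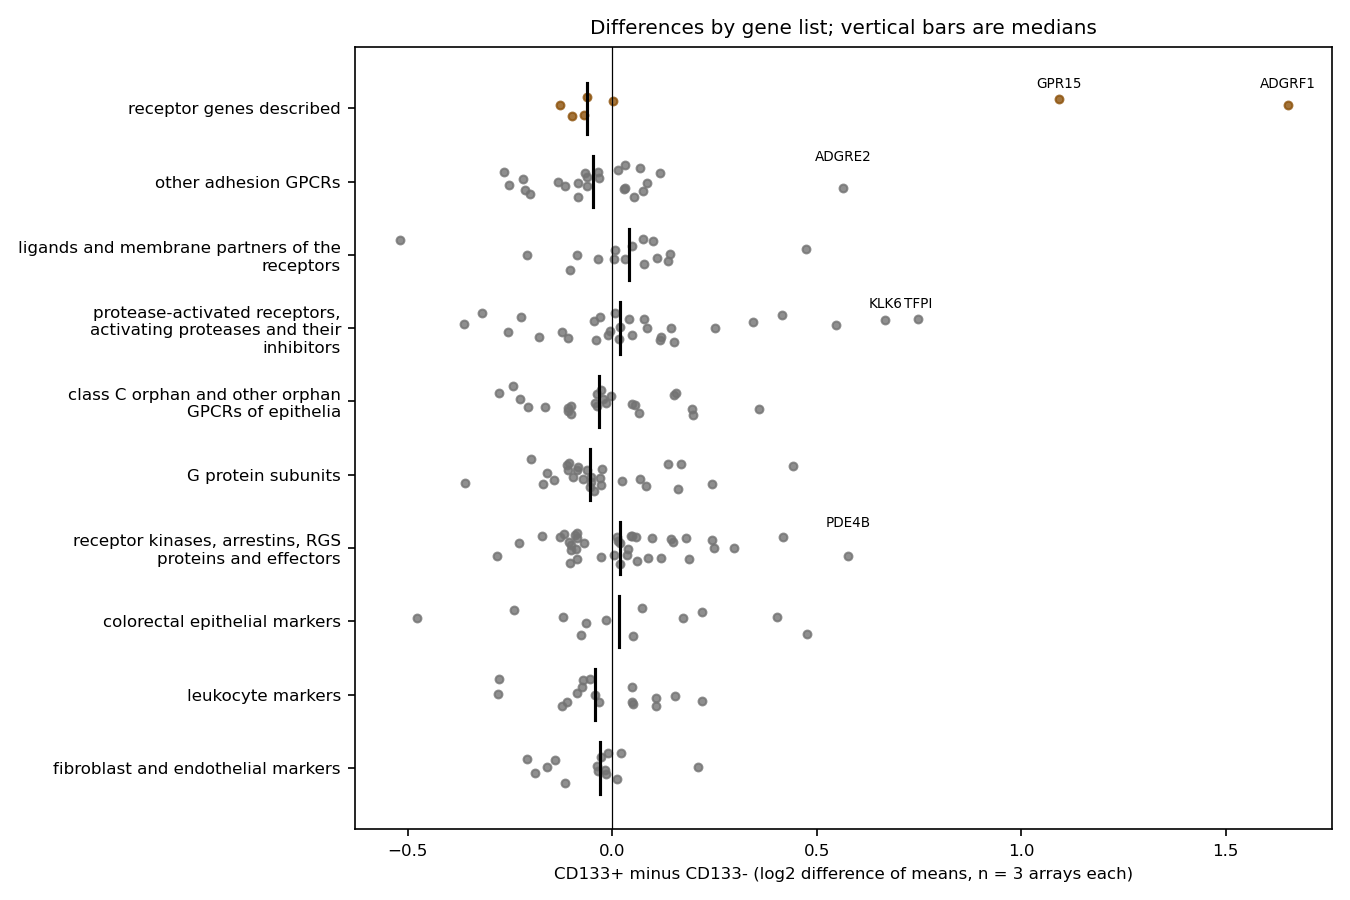
Difference between CD133+ and CD133- cells on the log2 scale for the 7 receptor genes (brown) and the genes of 9 lists (grey), 1 point a gene, with a vertical bar at each list's median. ADGRF1 at 1.65 and GPR15 at 1.09 lie to the right of every gene of the 9 lists, whose largest difference is that of TFPI at 0.75. Both were chosen for a large difference in this contrast, so nothing is read from their position.

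Since GPR15 and ADGRE5 are leukocyte genes as well, markers of other cells were read beside them. Leukocyte markers had 7 of 17 measured genes above 0 and a median of -0.04, and their mean signal was 4.49 to 4.61 in CD133+ and 4.38 to 4.70 in CD133- arrays. Limma called 0 in either fit, with 0 at an unadjusted p under 0.05 in both. PTPRC, the pan-leukocyte gene encoding CD45, had a difference of 0.11 with groups that did not overlap, at means of 2.44 and 2.33, far below the median signal. The T cell gene CD3E had -0.07, and both genes were named after their values were seen. The part of such cells in the GPR15 difference was not tested. Fibroblast and endothelial markers had 3 of 14 above 0 and a mean signal of 4.59 to 4.77 against 4.61 to 4.82, and by limma 0 passed, again with 0 unadjusted in both fits.

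Of 12 colorectal epithelial markers 7 lay above the median signal, among them EPCAM, CDH1, KRT8 and KRT18, whereas KRT20, CEACAM5, VIL1, GPA33 and LGALS4 lay below it. Their mean signal was 7.39 to 7.42 in CD133+ and 7.25 to 7.42 in CD133- arrays, and 6 of 12 had a difference above 0. By limma 0 passed without the block (2 unadjusted) or with it (4 unadjusted). The adhesion gene CLDN7 had a difference of 0.48, and the keratin genes KRT18 and KRT8 had -0.48 and -0.24. KRT18 had 2 probe sets, and only the brighter is given.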

How the data were processed

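Total RNA of sorted HCT116 cells was labelled with biotin and hybridised to 6 arrays. The deposited values were log2 signals that the authors made with Robust Multichip Average (RMA), per the labels' design text, which gives no software version. That text names a U133 array, while the row identifiers match a platform annotation of another design (Gene ST), which was used.

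Of 32321 rows, 4091 that precede the first row with a gene were left out as controls, and 28230 probe sets were tested. Of these, 19158 carried 1 gene symbol, 1388 several and 7684 none. Each gene took its probe set of highest mean. More than 1 probe set was present for 637 genes, among them KRT18, EPCAM, GNG5, GNAQ and GNAI2, whose other probe set is not shown. Symbols were updated through Entrez identifiers to RefSeq (GRCh38.p14), which also gave the order of neighbouring genes and the promoters. Array medians were 5.44 to 5.60, and precision is limited by their number.

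CD133+ minus CD133- was fitted with limma 3.58.1 in R 4.3.3 with fraction as the only term, Benjamini-Hochberg over all probe sets, threshold 0.05. Tested on simulated data, this fit missed all changes of the smallest size tried and many that were a doubling. It also missed a few larger ones, so a count of 0 passed does not show that genes were unchanged. The fit with the block found more of the changes but also called some unchanged probe sets. The simulated noise was drawn from the block fit, which favours the block. The deviations of same-numbered arrays correlated at 0.447 to 0.616, so the numbers pair the arrays by the data, and block results are given where they differ. An exact two-sided permutation test of 3 against 3 arrays cannot give a p below 0.1.

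The genes and the 9 lists (203 of 216 entries measured) were chosen with earlier results of these data known. Genes named in a list were those that passed, then up to 4 with the largest difference among genes above the median signal whose groups did not overlap; others are said to be chosen after their values were seen or are ligands, receptors and paralogues of the 8 genes. Alternatives were array weights, normalization, centring, filters, a minimum difference, probe set choice and arrays left out.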

Additional observations from a re-analysis of the deposited data

How the results depend on the processing

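With fraction as the only term 1 probe set passed limma (974 at an unadjusted p under 0.05). The count was 84 with the replicate block (3202 unadjusted), 33 with array weights, and 0 with quantile normalization repeated, with arrays centred on their medians, with the leading rows included and against a minimum log2 difference of 0.5. Leaving out single arrays gave 0 to 2, and leaving out a repetition under the block gave 43, 18 and 0 for repetitions 1, 2 and 3. No gene of the 6 pathway lists passed under any of the 14 alternatives (0 in each). The differences of ADGRF1 (1.40 to 1.87) and GPR15 (1.00 to 1.18) moved by less than the spread between replicates in 13 of 13 alternatives. Their groups did not overlap, so leaving out arrays could not change their sign, and nothing is read from its staying. The full block fit and the probe set mean cannot move a gene with 1 probe set. The differences of the other 5 genes also moved by less than the spread between replicates. GPRC5A stayed below 0 in 13 of 13, whereas ADGRF4, ADGRG1, ADGRG6 and ADGRE5 changed sign in some. The block changed the calls of CPOX and CLDND1 and that of PROM1 (adjusted p = 0.142 without and 0.0120 with it), and no other named call in the lists. In the test between repetitions 3680 of 28230 probe sets passed. With dim probe sets left out fewer were tested, and 6791 passed. GPR15 and ADGRF4 were among those left out, and 2 of the remaining receptor genes passed. The share of all probe sets that passed after this filter was not taken, so nothing is read from that count. With repeated quantile normalization 2655 probe sets passed, and 2 of the 7 receptor genes. Dim signals limit what can be said of ADGRF4 and, in both fractions, of GPR15.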
